A study of Mus musculus with 12 samples.

Results

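Endothelial cells are the barrier that fatty acids cross on their way from blood to tissue, and 10 genes of that route were followed in liver sinusoidal endothelial cells of mice with enforced Notch signalling. The genes were taken by name, as the probe sets for Cd36, Lpl, Gpihbp1, Angptl4, Fabp4, Fabp5, Acsl1, Plin2, Cpt1a and Pparg, so 10 of the 25428 probe sets on the arrays are described here. All 10 were found, 9 through the platform's gene symbols and Acsl1 through its Entrez gene number in RefSeq.

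The study profiled liver sinusoidal endothelial cells from 2 groups of mice with 6 Affymetrix arrays each. NICD-OE-HEC mice were Clec4g-Cre(tg/wt) animals that also carried the Rosa26-N1ICD-IRES-GFP allele, so that the intracellular domain of Notch1, the active fragment of the receptor, was made where the Clec4g promoter drives Cre. The other group is labelled Control, with genotype Ctrl; the labels and files used here do not state its full genotype, nor the age, sex or strain of either group. Each sample pooled the livers of 3 mice, and cells were purified with magnetic beads against CD146, the product of Mcam. The recorded digestion time was 25 minutes for every sample. The samples are labelled as biological replicates, and values are log2 RMA expression values, 1 per probe set and array.

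Triglyceride in circulating lipoproteins is cut by lipoprotein lipase (Lpl), which the endothelial protein Gpihbp1 carries to the vessel lumen and which Angptl4 inactivates. The fatty acids released enter the cell with the help of Cd36, travel through the cytoplasm on the binding proteins Fabp4 and Fabp5, and are activated to acyl-CoA by synthetases such as Acsl1. They are then passed on, stored in droplets coated by Plin2, or admitted to mitochondria through Cpt1a, the rate-limiting step of their oxidation. Pparg is a nuclear receptor that binds fatty acids and induces many of these genes in adipocytes and macrophages. In the mouse heart, endothelial Notch signalling is known to regulate fatty acid transport genes.

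Promoter sequences were at hand for 5 of the 10 genes, as 8 RefSeq sequences of GRCm38.p6 that run from 250 bases before an annotated start to 50 bases after it. They were read for TGGGAA, the core bound by the Notch effector RBPJ, on both strands. The core stood in 4 of the 8 sequences, for Cd36, Plin2, 1 of 3 Pparg starts and 1 of 2 Acsl1 starts, whereas 25.6% of all 32851 promoter sequences of this length hold it. Of the genes with the core, Plin2 and Acsl1 did not pass the test given below, and the other Pparg starts lack it. No sequence was at hand for Fabp4, Fabp5, Angptl4 or Lpl, which rose as well, so core and rise cannot be matched here. Below are a Cd36 and a Pparg promoter that hold the core, and that of Cpt1a, which holds none. They were chosen with their values known, because Cd36 and Pparg rose and Cpt1a fell. Each is written 5′ to 3′ along the gene, with any core in capitals.
Cd36 (chr5:17835847-17836146, minus strand): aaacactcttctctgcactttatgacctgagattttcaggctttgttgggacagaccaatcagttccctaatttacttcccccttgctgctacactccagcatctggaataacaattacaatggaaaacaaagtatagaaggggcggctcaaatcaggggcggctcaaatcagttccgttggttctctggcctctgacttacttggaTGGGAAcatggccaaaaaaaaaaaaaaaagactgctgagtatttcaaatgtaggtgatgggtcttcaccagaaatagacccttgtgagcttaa
Pparg (chr6:115421816-115422115, plus strand): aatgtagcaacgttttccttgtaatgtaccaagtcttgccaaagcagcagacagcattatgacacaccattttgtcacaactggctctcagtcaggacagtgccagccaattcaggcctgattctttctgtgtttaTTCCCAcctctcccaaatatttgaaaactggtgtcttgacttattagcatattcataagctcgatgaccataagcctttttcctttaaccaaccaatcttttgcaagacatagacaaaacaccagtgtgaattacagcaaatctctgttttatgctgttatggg
Cpt1a (chr19:3323051-3323350, plus strand): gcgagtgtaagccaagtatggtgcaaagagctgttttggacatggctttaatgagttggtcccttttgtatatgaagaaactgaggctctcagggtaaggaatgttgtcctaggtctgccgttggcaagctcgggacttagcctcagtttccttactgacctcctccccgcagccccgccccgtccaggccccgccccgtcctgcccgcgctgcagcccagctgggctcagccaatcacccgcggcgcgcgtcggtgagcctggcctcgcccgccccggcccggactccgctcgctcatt
The core of Cd36 lay on the gene's own strand at position -43 relative to the start. That of Pparg lay on the other strand at position -114, as part of the longer match GTGGGAA, which also stood in Plin2 and which 6.38% of all sequences hold. AGGTCA, a hexamer that nuclear receptors bind, stood in the promoters of Cd36, Cpt1a and Plin2 and at 2 Pparg starts, and in 16.3% of all sequences. ACGTG, the core of hypoxia response elements, stood in the Plin2 promoter alone among the 8, and in 19.6% of all sequences. A match describes letters in this window and shows no binding, and the Pparg probe set gives 1 value for the gene, so the start in use is not known here.

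The 10 genes split into 6 that rose, 1 that fell and 3 that did not pass the test. Cd36, Lpl, Angptl4, Fabp4, Fabp5 and Pparg rose and Cpt1a fell in NICD-OE-HEC at an adjusted p under 0.05 (limma, Benjamini-Hochberg over all probe sets). Over all probe sets 10.5% passed, 4.89% as higher and 5.59% as lower. The groups did not overlap for 5 genes that were higher, against 2.98% of all probe sets, and for Cpt1a, the 1 that was lower, against 3.7% (6.68% in either direction). When a log2 difference of 1 or more was also required, 4 genes rose, against 1.3% of all probe sets, and 0 fell, against 0.79%. The median difference was 0.75 for the 10 genes and -0.01 for all probe sets. In these bulk samples, fewer cells of a type and less RNA per cell cannot be told apart.

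**Figure D1:**
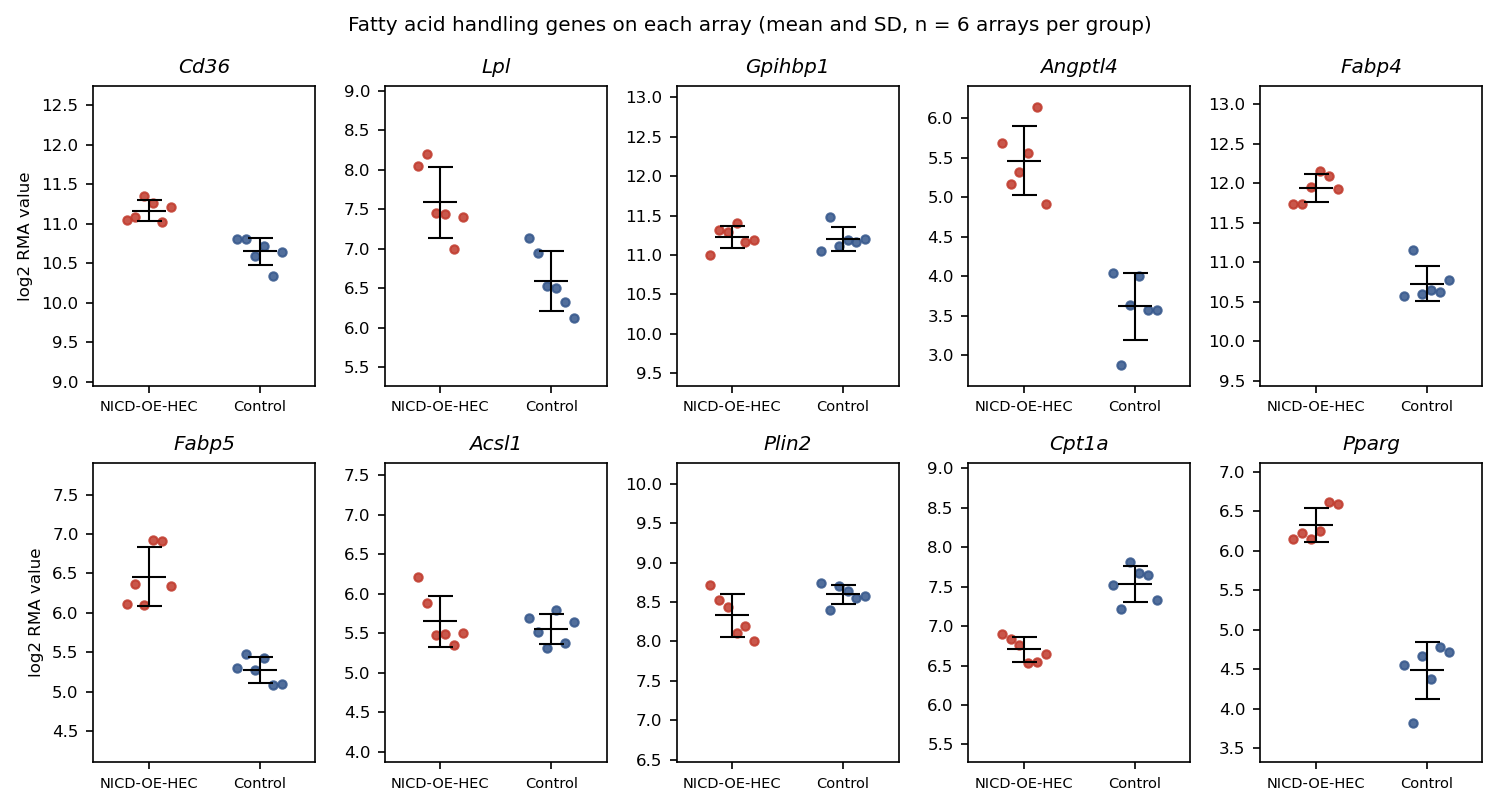
The log2 RMA value of each gene on every array, with NICD-OE-HEC on the left and Control on the right of each panel; points are arrays, and the bar with whiskers is the mean and SD (n = 6 arrays per group). All panels span the same height in log2 units, and the groups separate fully for Cd36, Angptl4, Fabp4, Fabp5, Cpt1a and Pparg. Lpl overlaps slightly, Plin2 overlaps in part, and Gpihbp1 and Acsl1 overlap broadly.

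Notch targets were higher in NICD-OE-HEC: 7 of 8 were called, with list means from 7.14 to 7.35 in NICD-OE-HEC and from 5.97 to 6.26 in Control, and Hey1 differed by 2.70. The Notch1 probe set averaged 8.87 ± 0.24 in NICD-OE-HEC and 8.68 ± 0.26 in Control (SD, n = 6 each) and was not called (adjusted p = 0.486); whether its probes lie in the transgene is not stated. Of 11 liver endothelial markers 3 rose and 6 fell, and markers of other liver cells were also present. Cdh5 and Tie1, pan-endothelial genes, averaged 11.51 and 10.08 in NICD-OE-HEC and 11.50 and 10.08 in Control, and neither was called. They were the only 2 of the 11 not called, and the median difference of the list was -0.51, so they do not stand for the whole list. The scavenger receptor Stab2, a defining gene of sinusoidal endothelium, was lower at 9.997, against 11.31 in Control (log2 difference -1.32, SE 0.10, adjusted p = 3.59e-07), and Clec4g, whose promoter drives the Cre, was lower as well (-0.81). Mean log2 levels of Kupffer cell and macrophage markers ran from 7.77 to 9.24 in NICD-OE-HEC and from 7.56 to 8.88 in Control, with 1 of 12 called, as higher. For hepatocyte markers the means ran from 6.64 to 8.01 in NICD-OE-HEC and from 6.00 to 7.27 in Control, with 5 of 11 higher. For neutrophil markers they ran from 4.74 to 6.81 in NICD-OE-HEC and from 3.28 to 4.55 in Control, with 9 of 12 higher. For stellate cell and fibroblast markers they ran from 5.64 to 5.95 in NICD-OE-HEC and from 5.05 to 6.01 in Control, with 4 of 13 higher and 2 lower. Mural cell markers ran from 6.00 to 6.43 in NICD-OE-HEC and from 5.04 to 5.48 in Control, with 7 of 11 higher, and lymphocyte markers from 3.04 to 3.95 in NICD-OE-HEC and from 3.34 to 3.62 in Control, with 0 of 10 called and 0 at an unadjusted p under 0.05 in limma. Of 8 adipocyte markers 1 was called, the hormone gene Retn (0.68), which neutrophils and monocytes can also express, and the list means ran from 3.77 to 4.36 in NICD-OE-HEC and from 3.59 to 3.92 in Control. The defining adipocyte genes Adipoq and Lep lay below the array median of 3.67 on all 12 arrays. Immediate early (early-response) genes, which dissociation of tissue is known to induce, had means from 7.37 to 9.02 in NICD-OE-HEC and from 6.17 to 7.49 in Control, with 11 of 14 higher. On the second principal component Control replicate 2 (-48.5) and NICD-OE-HEC replicate 4 (-30.3) stood apart from the other arrays.

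Of the genes that act in the vessel lumen, the lipase and its inhibitor rose and the carrier did not pass the test. Lpl, which hydrolyses triglyceride in lipoproteins, had a lowest value of 6.995, a median of 7.45 and a highest of 8.20 in NICD-OE-HEC, against 6.12, 6.51 and 7.14 in Control. The NICD-OE-HEC arrays lay above the Control arrays except replicate 5, which was below Control replicate 1. The means were 7.59 ± 0.45 in NICD-OE-HEC and 6.59 ± 0.38 in Control (SD, n = 6 each), a log2 difference of 1.00 (SE 0.21, adjusted p = 0.00506) and a ratio of 1.99 on the linear scale (95% interval 1.47 to 2.71).

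Angptl4, the secreted inhibitor of the lipase and a known PPAR and hypoxia target, showed, with Pparg, the largest difference of the 10. Its lowest, median and highest values were 4.91, 5.44 and 6.15 in NICD-OE-HEC, against 2.87, 3.604 and 4.04 in Control. The groups lay 0.87 apart at their nearest arrays, NICD-OE-HEC replicate 6 and Control replicate 1. The log2 difference was 1.85 (SE 0.21, adjusted p = 3.07e-05). On 4 of the 6 Control arrays Angptl4 was below the array median, a range in which signal and background are not told apart, and the size of its difference is inexact.

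Gpihbp1, the endothelial anchor of the lipase, had values of 11.00, 11.24 and 11.41 (lowest, median and highest) in NICD-OE-HEC, against 11.05, 11.18 and 11.48 in Control. The ranges covered each other almost fully. Its log2 difference of 0.03 had a 95% interval from -0.18 to 0.23 (adjusted p = 0.921), so a ratio above 1.17 or below 0.885 falls outside it.

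The receptor and both cytoplasmic carriers rose. Cd36, the fatty acid translocase, had values of 11.02, 11.15 and 11.35 in NICD-OE-HEC, against 10.34, 10.68 and 10.81 in Control, as lowest, median and highest. Every NICD-OE-HEC array lay above every Control array, with 0.22 between the nearest. The means were 11.16 ± 0.13 in NICD-OE-HEC and 10.65 ± 0.17 in Control (SD, n = 6 each), and the log2 difference was 0.51 (SE 0.10, adjusted p = 0.00270), a linear ratio of 1.43.

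Fabp4, which binds fatty acids in capillary endothelium, adipocytes and macrophages, reached 11.73, 11.94 and 12.16 in NICD-OE-HEC, against 10.58, 10.64 and 11.16 in Control. The groups did not overlap, and the highest Control value belonged to replicate 2, well above the other Control arrays, of which the highest was at 10.78. The log2 difference was 1.20 (SE 0.12, adjusted p = 4.64e-06), a linear ratio of 2.31 (95% interval 1.94 to 2.74), and 1.29 without Control replicate 2.

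Fabp5, its relative with a broader tissue distribution, had 6.11, 6.35 and 6.93 in NICD-OE-HEC, against 5.08, 5.29 and 5.48 in Control. The groups were 0.63 apart, and the NICD-OE-HEC arrays spread more widely, with replicates 4 and 5 above the rest. The log2 difference was 1.19 (SE 0.15, adjusted p = 7.69e-05), a linear ratio of 2.27. Fabp5 has processed copies elsewhere in the genome, and the sources used here do not say whether the probe set separates them.

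Fabp4 and Fabp5 are neighbours in a gene cluster on chromosome 3, and the genes among and beside them did not pass the test. Between them lie Pmp2 and Fabp9, with differences of 0.10 (adjusted p = 0.728) and 0.64 (adjusted p = 0.121), and beyond Fabp4 lies Fabp12 (0.20, adjusted p = 0.127). Pmp2 and Fabp12 were below the array median on all 12 arrays, and Fabp9 averaged 2.54 in NICD-OE-HEC and 1.91 in Control. The flanking genes Pag1 and Impa1 differed by 0.31 (adjusted p = 0.0576) and -0.15 (adjusted p = 0.491).

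Activation and storage genes were not called. Acsl1, which joins fatty acids to coenzyme A, had 5.34, 5.49 and 6.21 in NICD-OE-HEC, against 5.32, 5.57 and 5.79 in Control. NICD-OE-HEC replicate 1 was the highest of all arrays, and the rest overlapped. The log2 difference was 0.09 (95% interval -0.21 to 0.40, adjusted p = 0.793).

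Plin2, the coat protein of lipid droplets in most cells, had 8.0, 8.32 and 8.72 in NICD-OE-HEC, against 8.40, 8.60 and 8.74 in Control. The 3 lowest values were all from NICD-OE-HEC, but the others lay within the Control range. The log2 difference was -0.27 (95% interval -0.53 to -0.01), with an unadjusted p of 0.0430 and an adjusted p of 0.209.

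Cpt1a, which commits fatty acids to mitochondrial oxidation, was the gene that fell. It had 6.53, 6.71 and 6.90 in NICD-OE-HEC, against 7.22, 7.58 and 7.81 in Control, as lowest, median and highest. All NICD-OE-HEC arrays were below all Control arrays, with 0.32 between the nearest. The means were 6.70 ± 0.15 in NICD-OE-HEC and 7.53 ± 0.22 in Control (SD, n = 6 each), with a log2 difference of -0.83 (SE 0.11, adjusted p = 1.42e-04) and a linear ratio of 0.564 (95% interval 0.477 to 0.666).

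Pparg, the nuclear receptor, rose with the widest separation between the groups. Its values were 6.15, 6.24 and 6.62 in NICD-OE-HEC, against 3.81, 4.61 and 4.78 in Control. The nearest arrays of the groups lay 1.37 apart, more than the whole range of either group (0.48 in NICD-OE-HEC and 0.96 in Control). The means were 6.33 ± 0.22 in NICD-OE-HEC and 4.48 ± 0.36 in Control (SD, n = 6 each), and the log2 difference was 1.85 (SE 0.16, adjusted p = 1.29e-06), a linear ratio of 3.597 (95% interval 2.86 to 4.53).

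**Figure D2:**
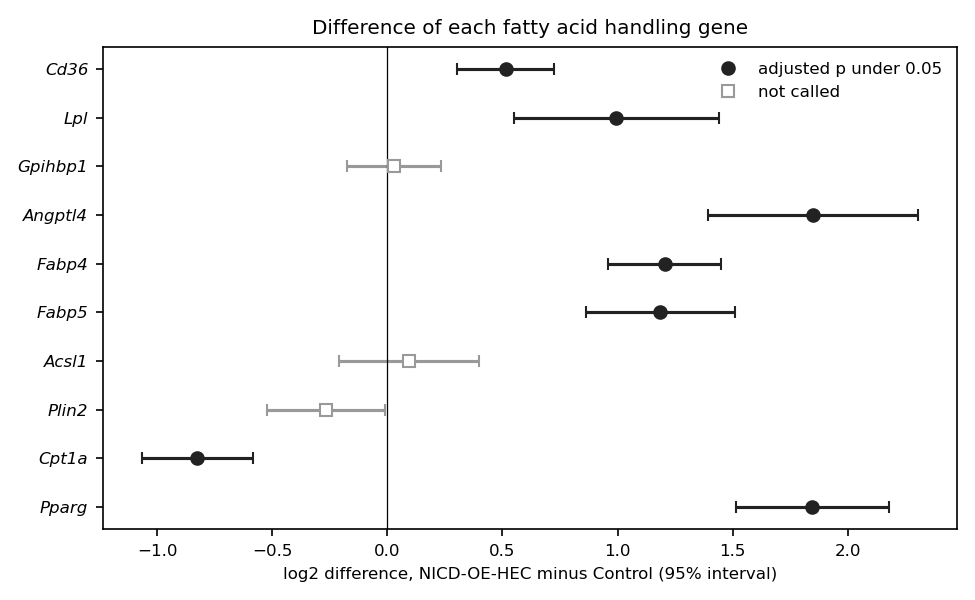
The log2 difference of each gene, NICD-OE-HEC minus Control, with limma's 95% interval; filled circles passed an adjusted p under 0.05 and open squares did not. Angptl4 and Pparg lie at 1.85, Fabp4 and Fabp5 near 1.2, and Cpt1a at -0.83, while the intervals of Gpihbp1 and Acsl1 span 0.

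Within a group, no relation between 2 of the genes passed adjustment, which 6 arrays make hard to pass. The 720 possible orders of 6 arrays allow no exact permutation p below 0.00139, so 1 relation alone, however close, could not pass. Among 45 pairs of genes in each group, 90 relations in all, 0 passed adjustment for Pearson's r or for Spearman's rho, and 16 had an unadjusted exact permutation p for r under 0.05. The lowest adjusted p, 0.125 for both coefficients, belonged to 2 relations in Control. Fabp4 and Gpihbp1 had r = 0.476 in NICD-OE-HEC (n = 6, exact permutation p = 0.350, adjusted p = 0.657) and rho = 0.377 (exact permutation p = 0.467, adjusted p = 0.835). In Control their r was 0.972 (n = 6, exact permutation p = 0.00139) and their rho 1.00 (exact permutation p = 0.00278). Leaving out the 2 Control arrays farthest from the Fabp4 median gave r = 0.977. Fabp5 and Pparg, which both rose in NICD-OE-HEC, had r = 0.492 within that group (n = 6, exact permutation p = 0.240, adjusted p = 0.506) and rho = 0.657 (exact permutation p = 0.175, adjusted p = 0.583). In Control they ran in opposite order, with r = -0.846 and rho = -1.0 (n = 6, exact permutation p = 0.00278 for each), and r was -0.905 without the 2 arrays farthest from the Fabp5 median.

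On these arrays Lpl was higher where macrophage and hepatocyte markers were higher, in both groups, though none of these relations passed adjustment. Against the mean of the 12 Kupffer cell and macrophage markers, which are cells known to make the lipase, Lpl had r = 0.904 in NICD-OE-HEC (n = 6, exact permutation p = 0.0181, adjusted p = 0.229) and rho = 0.943 (exact permutation p = 0.0167, adjusted p = 0.222). In Control r was 0.954 (n = 6, exact permutation p = 0.00139, which is the least that the 720 possible orders allow, adjusted p = 0.167) and rho was 1.00 (exact permutation p = 0.00278, adjusted p = 0.167). Without the 2 arrays farthest from the marker median r was 0.820 in NICD-OE-HEC and 0.989 in Control. Against the hepatocyte marker mean Lpl had r = 0.886 in NICD-OE-HEC (n = 6, exact permutation p = 0.0194, adjusted p = 0.229) and 0.858 in Control (n = 6, exact permutation p = 0.0292, adjusted p = 0.229), with rho = 0.771 in each (exact permutation p = 0.103, adjusted p = 0.510). Without the 2 farthest arrays r was 0.796 in NICD-OE-HEC and 0.670 in Control. Against the immediate early gene mean r was -0.904 in NICD-OE-HEC (n = 6, exact permutation p = 0.0167, adjusted p = 0.229) and -0.415 in Control (n = 6, exact permutation p = 0.422, adjusted p = 0.768). There rho was -0.714 in NICD-OE-HEC (exact permutation p = 0.136, adjusted p = 0.510) and -0.543 in Control (exact permutation p = 0.297, adjusted p = 0.686), and r without the 2 farthest arrays was -0.982 in NICD-OE-HEC and -0.697 in Control. Lpl was not alone in this within NICD-OE-HEC. There Acsl1 had r = 0.980 with the hepatocyte mean (n = 6, exact permutation p = 0.00417, adjusted p = 0.229). With the macrophage mean Acsl1 had r = 0.862 (exact permutation p = 0.0250, adjusted p = 0.229) and Cpt1a 0.827 (0.0389 and 0.265). In Control these r were 0.653, 0.253 and -0.0497 (n = 6, adjusted p of 0.488, 0.9045 and 0.989). All these belong to 120 relations of a gene with a marker list, chosen after seeing the data, of which 0 passed adjustment. Here too 1 relation alone could not have passed. With the Kupffer cell and macrophage marker mean as a covariate the difference of Lpl was 0.59 (SE 0.12, adjusted p = 0.00529), and with the hepatocyte marker mean it was 0.50 (SE 0.15, adjusted p = 0.0686).

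**Figure D3:**
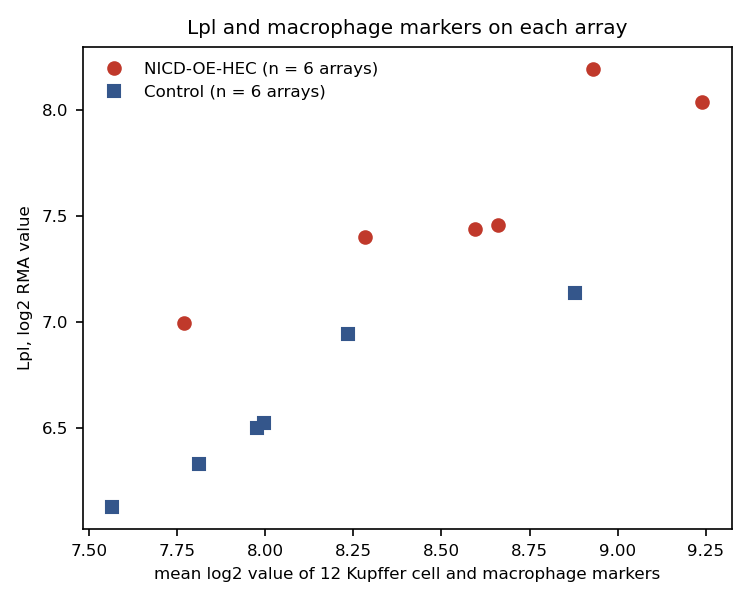
Lpl (log2 RMA value, vertical axis) against the mean log2 value of 12 Kupffer cell and macrophage markers (horizontal axis), 1 point per array, NICD-OE-HEC as circles and Control as squares. Lpl is mostly higher where the markers are higher in both groups, and at like marker levels the NICD-OE-HEC points lie above the Control points.

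The other marker means changed some of the 7 calls when entered as covariates. With the immediate early gene mean Pparg (1.34, adjusted p = 0.00652), Fabp4 (1.08, adjusted p = 0.0129), Angptl4 (1.56, adjusted p = 0.0460) and Lpl (1.78, adjusted p = 0.00418) kept their calls. Cd36 (0.69, adjusted p = 0.0524), Fabp5 (0.99, adjusted p = 0.0798) and Cpt1a (-0.68, adjusted p = 0.111) did not. With the neutrophil marker mean, which does not overlap between the groups, Pparg (1.74), Fabp4 (1.32), Fabp5 (1.37) and Cpt1a (-0.89) kept theirs, and Cd36 (0.63, adjusted p = 0.0901), Angptl4 (1.27, adjusted p = 0.0755) and Lpl (0.92, adjusted p = 0.289) did not. With the stellate marker mean all 7 kept their calls, as they did with the macrophage marker mean. Hypoxia-inducible genes had means from 6.72 to 7.40 in NICD-OE-HEC and from 5.86 to 6.13 in Control, with 9 of 13 higher and 1 lower. That mean separates the groups entirely, and with it as a covariate 0 of the 10 genes passed, Angptl4 standing at 0.51 (SE 0.49), Fabp5 at 0.42 (SE 0.38), Pparg at 1.08 (SE 0.40), Fabp4 at 0.95 (SE 0.33) and Lpl at 2.35 (SE 0.47). Over all probe sets, 1244 were called higher and 1422 lower without a covariate. With the immediate early gene mean these counts were 380 and 285, and with the neutrophil mean 346 and 430. With the hypoxia-inducible mean they were 55 and 35, so the loss of calls is not particular to the 10 genes. The part of these marker genes in the differences was not tested.

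**Figure D4:**
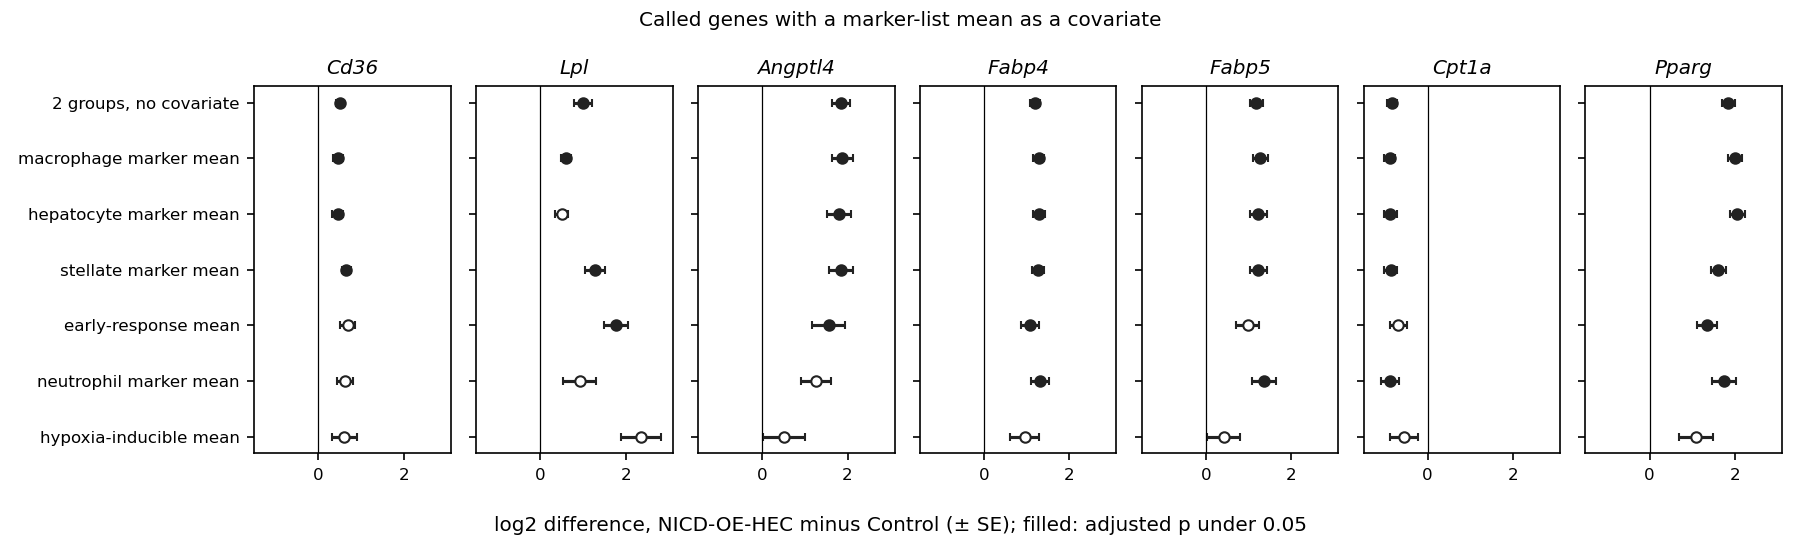
The log2 difference (NICD-OE-HEC minus Control, with SE) of the 7 called genes in the fit of 2 groups and with each marker-list mean as a covariate; filled points passed an adjusted p under 0.05. Pparg and Fabp4 stay filled in all rows except that of the hypoxia-inducible mean, and Lpl ranges from 0.50 to 2.35.

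Around these 10 genes, 11 lists of related lipid genes held 169 measured genes, of which 20 rose (11.8%) and 13 fell (7.69%), against 4.89% and 5.59% of all probe sets. Their median difference was 0.00. With a marker mean as a covariate, 24 of these 33 calls held with the macrophage mean, 24 with the stellate mean, 23 with the hepatocyte mean, 6 with the immediate early gene mean, 5 with the neutrophil mean and 0 with the hypoxia-inducible mean.

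**Figure D5:**
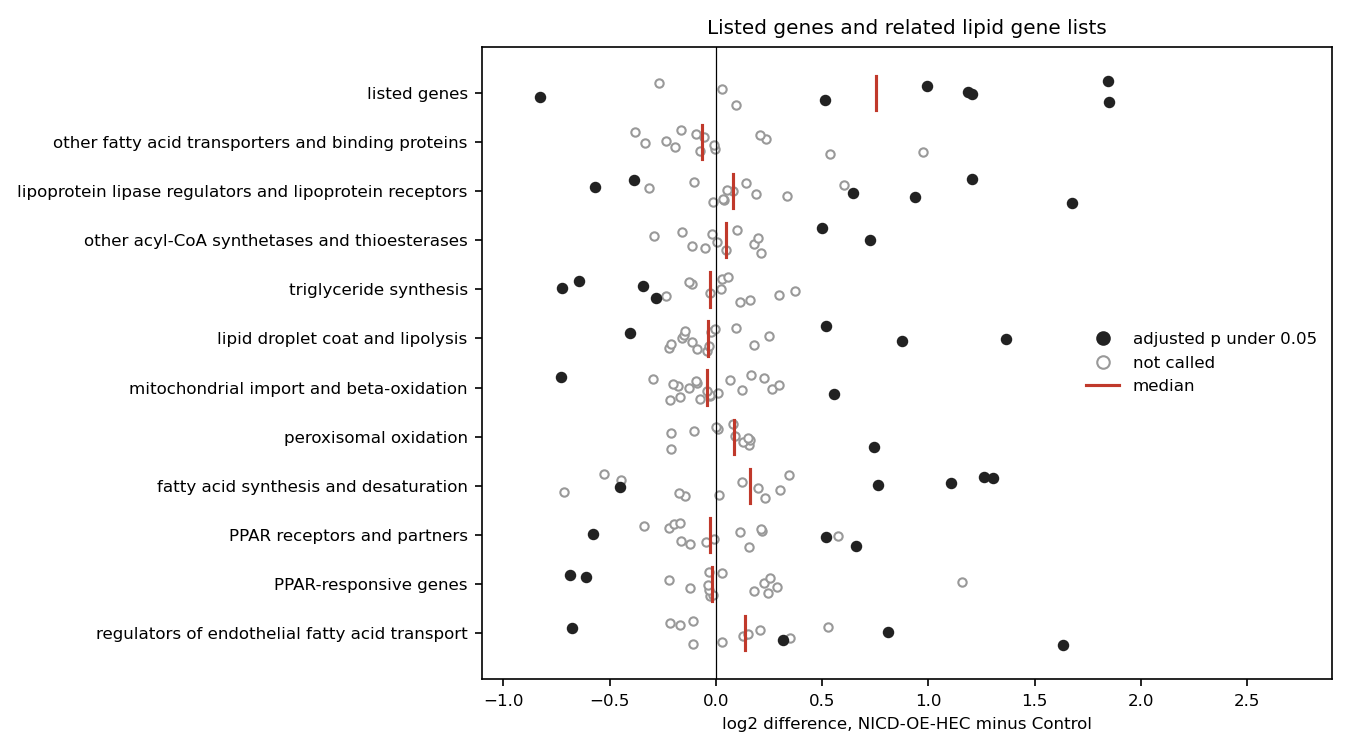
The log2 difference (NICD-OE-HEC minus Control) of each of the 10 listed genes and of the genes in 11 related lists, 1 point per gene; filled points passed an adjusted p under 0.05, open points did not, and the red bar is the list's median. The median of the 10 listed genes is 0.75, and those of the related lists lie between -0.07 and 0.16.

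Of 14 further transporters and binding proteins 0 passed in limma (median -0.07), 3 had an unadjusted p under 0.05, and the largest differences were those of the hepatocyte carrier Fabp1 (0.97, adjusted p = 0.109) and the caveolar coat gene Cav1 (0.54, adjusted p = 0.0627). Fabp1 passed without NICD-OE-HEC replicate 5 or Control replicate 2, with adjusted p of 0.0489 and 0.0152, and with array weights (1.21, adjusted p = 0.0201), without both arrays that stood apart (1.16, 0.0319) and with the immediate early gene mean as a covariate (2.36, 0.0164). Cav1 passed without NICD-OE-HEC replicate 1 or Control replicate 2 or 6 (adjusted p of 0.0236, 0.0381 and 0.0426). It also passed with the hepatocyte mean (0.73, adjusted p = 0.0482) or the neutrophil mean (1.08, 0.0469) as a covariate. The transport regulators Meox2 and Tcf15, which drive Cd36 and Lpl in mouse heart endothelium, differed by 0.21 (adjusted p = 0.527) and 0.53 (adjusted p = 0.0869). Tcf15 passed without NICD-OE-HEC replicate 4 (adjusted p = 0.0377), and Meox2 was below the array median on all arrays. With the hepatocyte mean (0.81, adjusted p = 0.0241) or the macrophage mean (0.70, 0.0394) as a covariate Tcf15 passed as well. Of 14 such regulators 3 rose and 1 fell (median 0.14). Apln, the ligand of the apelin receptor, rose by 1.63 (SE 0.32) with a Control mean of 3.30, below the array median, and the integrin Itgb5 by 0.81. The VEGF receptor Flt1 rose by 0.32 and its co-receptor Nrp1 was lower by -0.68 (adjusted p = 1.05e-04). Flt1 was close to the threshold (adjusted p = 0.0435) and lost its call when any 1 of the 12 arrays was left out except NICD-OE-HEC replicate 2 and Control replicate 4 (adjusted p up to 0.0941), and also without both arrays that stood apart (0.125).

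Among 17 regulators of the lipase and lipoprotein receptors 4 rose and 2 fell (median 0.08). Among those that rose, the apolipoprotein Apoc3, a hepatocyte product that inhibits the lipase, differed by 0.94 (SE 0.26, adjusted p = 0.0295). On the same arrays the hepatocyte gene Alb was higher by 1.13 and 5 of 11 hepatocyte markers, Apoc3 among them, were called as higher. With the hepatocyte marker mean, which includes Apoc3 itself, as a covariate the difference of Apoc3 was 0.27 (adjusted p = 0.388). It also lost its call with the macrophage mean (0.49, adjusted p = 0.150), the neutrophil mean (0.68, 0.606) and the hypoxia-inducible mean (2.39, 0.175). Apoc3 kept its call with the immediate early gene mean and the stellate mean. The part of hepatocyte RNA in the difference of Apoc3 was not tested. Vldlr, a receptor for triglyceride-rich particles, rose by 1.21 with a Control mean of 2.66, below the array median. The 2 that fell were Lmf2 (-0.57), a relative of the lipase maturation factor Lmf1, and Sel1l (-0.39), which helps the lipase leave the endoplasmic reticulum. Apoc3 lost its call without NICD-OE-HEC replicate 1 or 2 or Control replicate 3, 5 or 6 (adjusted p up to 0.0758). Sel1l lost it without any 1 array except NICD-OE-HEC replicate 1 and Control replicate 2 (up to 0.102).

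Acyl-CoA handling and synthesis genes rose in part. Of 13 other synthetases, thioesterases and acyl-CoA binding proteins 2 rose and 0 fell (median 0.05): the droplet-associated synthetase Acsl3 by 0.72 (SE 0.13, adjusted p = 0.00182) and the acyl-CoA binding protein Dbi by 0.50. Of 16 genes of fatty acid synthesis and desaturation 4 rose and 1 fell (median 0.16). The desaturases Scd1 and Scd2 rose by 1.30 and 1.26, fatty acid synthase (Fasn) by 1.11 (SE 0.17, adjusted p = 3.18e-04) and the desaturase Fads2 by 0.76, while Fads1 was lower by -0.45. Srebf1, a regulator of lipid synthesis, did not pass, at 0.34 (adjusted p = 0.136), but passed without Control replicate 5 (0.0417).

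Most triglyceride assembly and droplet genes did not pass the test. Of 15 genes of triglyceride synthesis 0 rose and 4 fell (median -0.03). These were the acyltransferases Gpat3 (-0.72, SE 0.10, adjusted p = 2.01e-04), Gpat4 (-0.34) and Agpat3 (-0.28) and the phosphatase Lpin3 (-0.65). Agpat3 lost its call without NICD-OE-HEC replicate 2 or 6 or Control replicate 3, 4, 5 or 6 (adjusted p up to 0.0676), and Lpin3 without both arrays that stood apart on the second component (-0.53, adjusted p = 0.0518). Of 18 genes of droplet coat and lipolysis 3 rose and 1 fell (median -0.04). Hilpda and G0s2, inhibitors of the triglyceride lipase Pnpla2, rose by 1.36 (SE 0.19, adjusted p = 1.77e-04) and 0.88, Pnpla2 itself rose by 0.52, and the monoglyceride lipase Mgll was lower by -0.41. Hilpda is also a known hypoxia target, and 9 of 13 hypoxia-inducible genes were higher on the same arrays. The part of hypoxia in the difference of Hilpda was not tested. Hilpda, G0s2 and Pnpla2 did not pass with the immediate early gene mean as a covariate (0.88, 0.33 and 0.46), with the neutrophil mean (1.33, 0.51 and 0.23) or with the hypoxia-inducible mean (0.27, 0.02 and 0.33). With the hypoxia-inducible mean only 55 probe sets were called higher and 35 lower on the whole array, so this loss is not particular to these genes.

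Beyond Cpt1a, oxidation genes mostly did not pass. Of 21 genes of mitochondrial import and oxidation 1 rose and 1 fell (median -0.04). The carnitine transporter Slc22a5 was lower by -0.73 (SE 0.11, adjusted p = 3.40e-04), and Cpt1c, a relative of Cpt1a known from neurons, rose by 0.56. Of 12 peroxisomal genes 1 rose and 0 fell (median 0.09), the transporter Abcd2 (0.75, adjusted p = 0.0411). Its Control mean of 3.08 was below the array median, and it kept its call only when NICD-OE-HEC replicate 4 or 6 or Control replicate 1 or 3 was the array left out (adjusted p up to 0.0905 otherwise, and 0.0702 without both arrays that stood apart).

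Relatives of Pparg did not pass the test. Ppara and Ppard, the other fatty acid receptors of the family, differed by 0.12 (adjusted p = 0.587) and 0.21 (adjusted p = 0.392), and the partner Rxra by -0.34 (adjusted p = 0.147), which passed without Control replicate 2 (0.0412). Whether the difference of Pparg exceeds theirs was not tested. Rxra also passed with the macrophage marker mean as a covariate (-0.49, adjusted p = 0.0437). Of 16 receptors and partners 2 rose and 1 fell (median -0.03). The transcription factor Cebpb, an inducer of Pparg in adipocytes, rose by 0.66 (adjusted p = 0.0157), while Nrip1, a corepressor of nuclear receptors, was lower by -0.58. As covariates, all marker means except the stellate mean took the call of Cebpb away. Its difference was 0.30 with the immediate early gene mean (adjusted p = 0.815) and 0.22 with the neutrophil mean (0.808). With the hepatocyte mean it was 0.64 (0.0934), with the macrophage mean 0.61 (0.0706) and with the hypoxia-inducible mean -0.10 (0.993). Of 16 other genes known to respond to PPARs 0 rose and 2 fell (median -0.02), the mitochondrial carrier Ucp2 (-0.69, adjusted p = 0.00245) and Txnip, a regulator of thioredoxin (-0.61, adjusted p = 2.70e-04), and 6 of the 16 were below the array median on all arrays.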

How the data were processed

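Gene expression was measured on 12 arrays, 6 of NICD-OE-HEC and 6 of Control. The deposited values are log2 values that the authors made with RMA (background correction, quantile normalization, 1 summary per probe set), per the submitters' processing notes. The sources used here name no software, chip definition or build. No detection calls were used. Array medians ran from 3.674316 to 3.674581 and within-group correlations from 0.976 to 0.992, and 0 arrays were identical. Because the arrays share their distribution, a shift of most genes one way would not show.

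Probe sets were named by platform symbols (24705 of 25428), and otherwise by Entrez number in RefSeq (564 of the remaining 723). Differences are NICD-OE-HEC minus Control from limma 3.58.1 in R 4.3.3 (lmFit, eBayes, no covariates), two-sided, adjusted by Benjamini-Hochberg over all probe sets, with no filter. SE is limma's moderated error and SD the spread over 6 arrays, whose number limits the precision. Permutation tests used Python 3.11.15 and were two-sided. Tested on simulated data with these 25428 probe sets, this comparison recovered 50.8% of 65 probe sets changed by log2 0.5, 94.8% of 58 at 1 and 100% of 77 at 2. The simulated errors were independent between probe sets and only those probe sets were changed, whereas 10.5% passed in the data. The shares recovered in the data may therefore differ.

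The genes, lists, tests and alternatives were chosen with earlier results of these data known. From each related list the text names the called genes, at most 4 by absolute difference, or, with no call, the 2 genes that differed most; some genes this rule names are counted but not reported here. Lmf2, Sel1l, Fads1, Ppara, Ppard, Rxra, Srebf1, Tcf15, Meox2, the neighbours of Fabp4, Notch1 and the relations of genes with marker lists were added after their values were seen. The labels do not say whether replicate numbers pair the arrays, and the main fit did not pair them. Same-numbered arrays had correlations of deviations from -0.105 to 0.219, with 3 of 6 over 0.1. With a replicate block the SE of Lpl was 0.105, against 0.208 in the main fit, so some shared structure by number remains possible. Alternatives were other scalings, filters on dim probe sets, variance settings, array weights, a replicate block, arrays left out, a stricter call rule and marker-list means as covariates.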

Additional observations from a re-analysis of the deposited data

Results flagged for a closer look

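Control replicate 2 held all 4 values that stood far from the other arrays of their group, among 102 combinations of a named gene and a group, of which chance flags about 1 in 20. On that array Fabp4 was 11.16, with the other Control arrays between 10.58 and 10.78. Gpihbp1 was 11.48 there, with the others between 11.05 and 11.20. The lipase Mgll was 7.742, with the others between 8.133 and 8.279, and Lmf2 was 7.053, with the others between 7.605 and 7.894. The same array stood apart on the second principal component, at -48.5. Without it the difference of Fabp4 was 1.29 and that of Gpihbp1 was 0.08.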

How the results depend on the processing

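The 6 rises and 1 fall among the 10 genes were called again in every fit with another scaling, filter, variance setting, array weight, or array or pair of arrays left out. The replicate block also gave 6 and 1, with 1294 probe sets higher and 1213 lower over all, and 5 of 12 arrays correlated best with the array of their own number in the other group. Under the block Fabp1 (adjusted p = 0.0116) and Srebf1 (0.0463) passed and Agpat3 (0.0905) did not. Flt1 lost its call with array weights (0.0720), and Cav1 passed without the dimmest 50% of probe sets (0.0391). Marker means as covariates and the stricter rule changed counts. Genes called higher numbered 4 with the early-response mean, 5 with the hepatocyte mean, 3 with the neutrophil mean and 0 with the hypoxia-inducible mean. They numbered 4 at a log2 difference of at least 1, and stayed at 6 with the macrophage or the stellate mean. Genes called lower numbered 0 with the early-response mean, 0 with the hypoxia-inducible mean and 0 at a log2 difference of at least 1. Over all probe sets, counts higher and lower were 380 and 285 with the early-response mean and 346 and 430 with the neutrophil mean. They were 742 and 869 with the stellate mean, 888 and 930 with the hepatocyte mean and 1052 and 1062 with the macrophage mean. With the hypoxia-inducible mean they were 55 and 35, and at a log2 difference of at least 1 they were 330 and 201. A covariate that moves with the groups also widens the errors, and the cause of each change was not tested. The sign turned for Cebpb alone among the called genes named, to -0.10 with the hypoxia-inducible mean. No signal over background was used here, so differences of genes below the array median, such as Angptl4 in Control, have no exact size.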
